A study of Danio rerio with 18 samples.

Results

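Genes of DNA replication and cell division were examined in the translating RNA of keratinocytes, neutrophils and macrophages from zebrafish larvae 3 days post-fertilization (dpf). The set held 60 gene names. It comprised 27 names of S phase, 30 names of mitosis and 3 other genes that accompany proliferation. The names were selected on the neutrophil values of these same libraries, which were higher with HRasG12V, and on keratinocyte values that changed little. The differences within neutrophils and within keratinocytes are therefore given as a description, without a test. No numerical threshold entered the choice. Of the 60 names, 56 matched a gene symbol, 3 (prc1a, hmgb2a and stmn1a) matched a RefSeq synonym, and 1 (birc5a) matched after its last letter was removed. They led to 64 Ensembl gene IDs among zebrafish genes, since mcm6, rrm2, prc1a and stmn1a had 2 IDs each. Values were found for 62 IDs of 58 names, and the IDs of dut and ube2c were not analysed here. A filter on low counts kept 60 IDs of 57 names, and removed ccnb2 and the mcm6 ID ENSDARG00000033231. All 31953 gene IDs in the files passed through the same filter, which kept 16011.

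Translating ribosome affinity purification (TRAP) recovers RNA bound to ribosomes that carry an EGFP-tagged L10a subunit in a chosen cell type. HRas was placed in keratinocytes in every group by injection of a plasmid with the krt4 promoter, as pTol2-krt4-RFP-HRas in control larvae and as pTol2-krt4-RFP-HRasG12V, the constitutively active form, in the others. For keratinocyte libraries, wild-type larvae also received a plasmid in which krt4 drives the tagged L10a, and for leukocyte libraries the larvae were Tg(LyzC:EGFP-L10a) for neutrophils or Tg(mpeg1:EGFP-L10a) for macrophages. Injected plasmids reach larvae in mosaic, and neutrophils and macrophages carried no Ras construct under their own promoters. Each cell type had 3 HRas control and 3 HRasG12V libraries, each from about 50 pooled larvae, and the replicate number is the batch label and marks 1 of 3 collection days.

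Before a cell copies its DNA, the Cdc6 and Cdt1 proteins load the Mcm2-7 helicase onto origins, and geminin blocks reloading. During S phase, DNA polymerases work with the Pcna clamp while ribonucleotide reductase supplies deoxynucleotides. In mitosis, Cdk1 with cyclins A and B, Polo-like kinase and Aurora kinases drive chromosome condensation, spindle assembly and the checkpoint that ends with Cdc20 and the anaphase-promoting complex. Mature neutrophils have generally left the cell cycle and divide as precursors, whereas basal keratinocytes and some tissue macrophages go on dividing.

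Depth outside a few features limited what could be seen of these genes. Totals of expected counts ran from 6206924 to 14781123 per library in 17 libraries. From 72.9% to 94.7% of a total fell on its 10 most abundant features, so that 385201 to 2577036 counts remained for the rest of the genes. Macrophage HRas control replicate 3 held 16990 counts, of which 2 fell on cell cycle genes. It was left out of every value except those of an alternative fit on all 18 libraries. The cell cycle IDs together had between 1316 counts (neutrophil HRas control replicate 3) and 14435 counts (macrophage HRasG12V replicate 2). A mean of at least 20 counts per library was reached by 38 of the 60 tested IDs, 17 of S phase, 17 of mitosis and all 4 others.

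Neutrophil HRas control replicate 3 stood apart. Of the 60 tested IDs, 16 had 0 counts in it, against 5 and 0 in neutrophil HRas control replicates 1 and 2. Of 10 listed neutrophil markers 6 were found (lyz, mmp9, mmp13a, npsn, ncf1 and mmp25b). The paper places ncf1 among macrophage genes and uses lyz and mpx, the latter not listed here, for neutrophils. The summed level of the 6 markers was 3.64 CPM in neutrophil HRas control replicate 3. CPM are counts relative to library size, here scaled by trimmed-mean (TMM) factors. That value was under the 3.91 to 4.24 CPM of the keratinocyte control libraries. Neutrophil control replicates 1 and 2 had 27.9 and 19.7 CPM of these markers, and the HRasG12V neutrophil libraries 71.0, 63.1 and 31.9 CPM. Baseline values, fitted medians of the set and of each phase, and counts of separated groups are thus given with and without it. Values of some single genes are given both ways as well. Other neutrophil medians and counts, such as those by role, by day and of other gene lists, include it. Keratinocyte markers summed to 2970 to 4900 CPM in the 6 keratinocyte libraries, and to 757 to 2510 CPM in the leukocyte libraries. Macrophage markers summed to 51.1 to 129 CPM in the 5 macrophage libraries and to 7.64 to 15.3 CPM in the others.

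**Figure D1:**
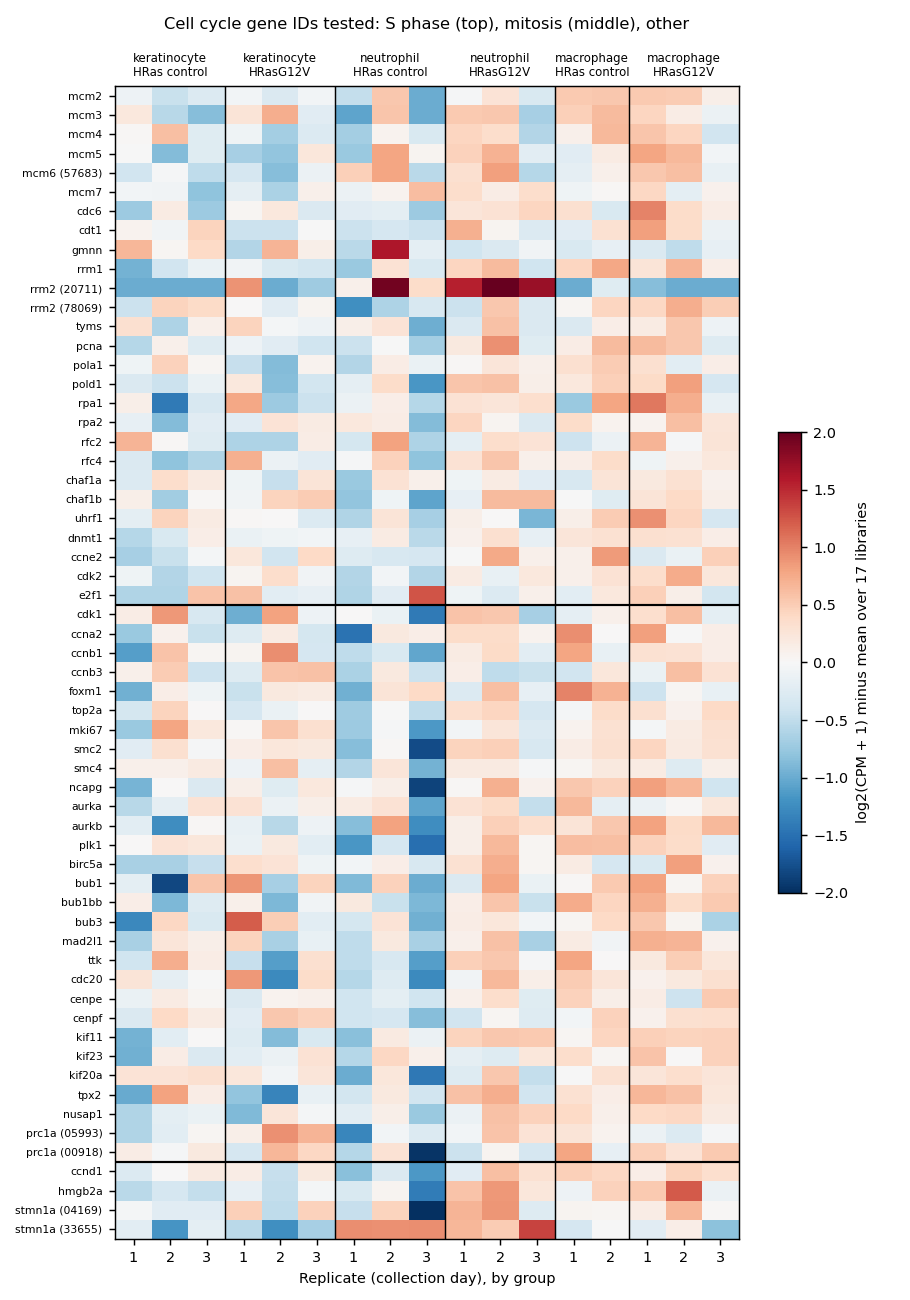
Level of each of the 60 tested gene IDs (rows; S phase, mitosis and other genes in 3 blocks) in 17 libraries (columns, by group and replicate), as log2(CPM + 1) minus the gene's mean over the libraries, with colours limited to -2 and 2. Low values fill neutrophil HRas control replicate 3, where 16 IDs had 0 counts, and the rrm2 ID ENSDARG00000020711 stands out in the neutrophil columns.

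The question of baseline, which cell type held most of these transcripts without oncogenic Ras, was first asked in the control libraries. Neutrophil and keratinocyte control libraries entered the choice of genes. Choosing genes higher in HRasG12V than in control neutrophils can favour those low in neutrophil controls. The baseline values are therefore given as a description. Of the 60 tested IDs, 46 (76.7%) had their highest mean in macrophages, against 36.9% of all 16011 genes tested. Only 8 IDs (13.3%) were highest in keratinocytes and 6 (10%) in neutrophils, against 30.8% and 32.3% of all genes. The log2 difference of group means had a median over the 60 IDs of -0.93 for neutrophils minus macrophages, where that over all genes was -0.10. For neutrophils minus keratinocytes the median was -0.24, against 0.00 over all genes. Without neutrophil control replicate 3, a comparison chosen after seeing the data, 43 IDs were highest in macrophages and 11 in neutrophils. Of all genes, 34.5% and 36.2% were. The median of neutrophils minus macrophages was then -0.56, where that over all genes was 0.00. The median of neutrophils minus keratinocytes was then 0.04, against 0.11 over all genes, so that its sign rested on that library. In ribosome-bound RNA from pooled cells, fewer cycling cells and less of each transcript per cell cannot be told apart. Leukocyte control libraries also held markers of other cells. Keratinocyte markers were at 757 to 1240 CPM in neutrophil and 1130 to 1230 CPM in macrophage controls. Neural and retinal progenitor markers were at 55.1 to 79.3 and 55.4 to 61.0 CPM in that order, and at 52.9 to 58.4 CPM in keratinocyte controls. The part of such RNA in the baseline was not tested.

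Mitotic genes had the lower neutrophil baseline of the 2 phases by their median. In control neutrophils, 28 of 29 mitotic IDs had a lower mean than in control macrophages, with a median log2 difference of -1.06. For S-phase IDs the count was 21 of 27 and the median -0.76. Of all 16011 genes tested, 8872 were lower. Without neutrophil control replicate 3, 8002 of all genes were lower. The medians of mitotic and S-phase IDs were then -0.58, with 27 of 29 lower, and -0.39, with 19 of 27 lower. The difference between these medians was not tested, since the neutrophil controls entered the choice of genes. The stmn1a ID ENSDARG00000033655 was the clearest exception. Stathmin, its product, destabilizes microtubules. The level was 50.5, 50.0 and 50.7 CPM in neutrophil controls, 22.5, 11 and 22.8 CPM in keratinocyte controls and 20.6 and 26.0 CPM in macrophage controls. Every neutrophil control library thus lay above every control library of the other cell types. In HRasG12V neutrophils its level was 42.1, 37.5 and 68.2 CPM, on both sides of the controls. The set has a second ID of the same symbol, ENSDARG00000004169, and the division of reads between IDs of 1 symbol is uncertain, for stmn1a as for prc1a, rrm2 and mcm6.

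Levels were compared between genes per kilobase of effective length, as means over the 17 libraries. hmgb2a, a chromatin protein gene of dividing cells, was highest at 40.9 CPM per kb, followed by stmn1a (ENSDARG00000033655) at 19.0, the kinetochore motor gene cenpe at 10.1, the clamp gene pcna at 8.58 and the helicase gene mcm7 at 8.46. The proliferation marker mki67 had 6.18 CPM per kb and the topoisomerase gene top2a 5.78. At the other end were the licensing genes cdt1 at 0.224 and cdc6 at 0.348 and the kinase gene cdk2 at 0.335 CPM per kb. S-phase and mitotic IDs had like medians, 1.45 CPM per kb over 27 IDs and 1.46 CPM per kb over 29 IDs.

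The balance of S-phase against mitotic genes was read in each library as the mean log2 CPM of the 27 S-phase IDs minus that of the 29 mitotic IDs. It was 0.09, -0.82 and -0.58 in keratinocyte controls and -0.28, -0.53 and -0.54 in HRasG12V keratinocytes. In neutrophil controls it was -0.02, -0.06 and 0.32, and in HRasG12V neutrophils -0.17, -0.33 and -0.10. It was -0.83 and -0.21 in macrophage controls and -0.24, -0.33 and -0.62 in HRasG12V macrophages. The 3 HRasG12V neutrophil libraries lay below all 3 controls, but the nearest values were -0.10 and -0.06. With a prior count of 0.5 the controls had -0.03, -0.10 and 0.32 and HRasG12V -0.19, -0.36 and -0.04, which overlap. Without control replicate 3 the mean of neutrophil controls was -0.04 in place of 0.08. The values of keratinocyte and macrophage groups overlapped between constructs.

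The comparison of macrophage with keratinocyte control libraries was not itself used in the choice of genes. The keratinocyte control libraries did enter that choice, through the keratinocyte values, so the comparison is not fully independent of it. The fit was edgeR's quasi-likelihood test on all genes with the collection day as a block, and p-values were adjusted by Benjamini-Hochberg over 16011 genes. 0 of 60 IDs had an adjusted p of at most 0.05, while 1.56% of all genes tested did. DESeq2 also called 0 of the IDs. At an unadjusted p under 0.05 there were 4 of 60 IDs, against 10.2% of all genes. Positive log2 fold changes, meaning higher in macrophages, were found for 48 of 60 IDs, with a median of 0.44 where all genes had 0.07. The median was 0.48 for S-phase and 0.43 for mitotic IDs.

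Both macrophage control libraries lay above all 3 keratinocyte control libraries for 22 of 60 IDs, where 16.6% of all genes did, and below for 1 ID, gmnn, where 11.9% of all genes did. The 22 were mcm2, mcm3, rrm1, pcna, pold1, rpa2, rfc4, dnmt1, ccne2 and cdk2 of S phase, foxm1, ncapg, aurkb, plk1, birc5a, bub1bb, kif11, nusap1 and the prc1a ID ENSDARG00000005993 of mitosis, and ccnd1, hmgb2a and the stmn1a ID ENSDARG00000004169. The set includes rrm1, the large subunit of ribonucleotide reductase, with 9.68 and 12.7 CPM in macrophage controls and 3.13, 5.09 and 6.28 CPM in keratinocyte controls. Its log2 fold change was 1.07 (SE 0.40), with an adjusted p of 0.252 in edgeR. For mcm2, a helicase subunit, the values were 11.5 and 11.6 CPM against 7.09, 5.38 and 6.14 CPM, a log2 fold change of 0.73 (SE 0.38, adjusted p = 0.531, edgeR). foxm1, the transcription factor of G2 and M genes, had 2.87 and 2.16 CPM against 0, 1.13 and 0.838 CPM, a log2 fold change of 2.60 (SE 1.06, adjusted p = 0.333, edgeR). These differences did not pass the threshold. With 2 macrophage control libraries, their precision rests on the spread shared by all groups.

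**Figure D2:**
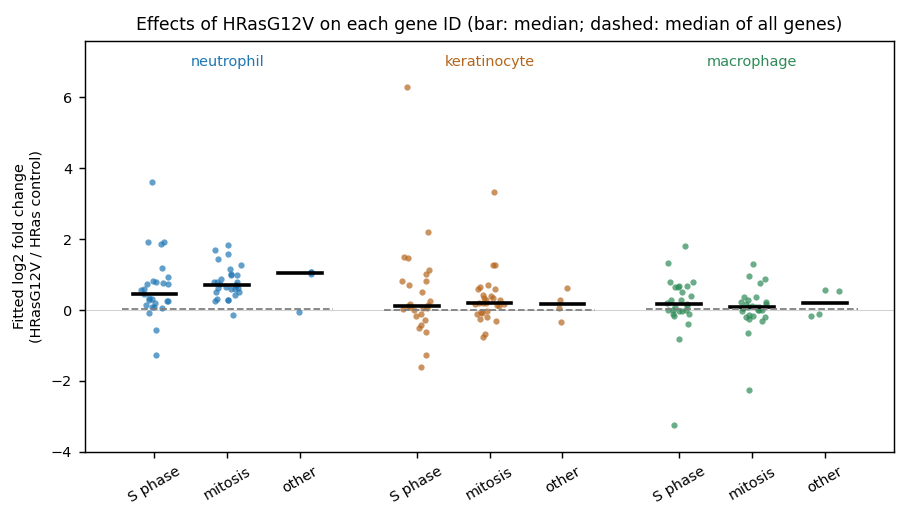
Fitted log2 fold change (HRasG12V over HRas control) of each tested gene ID by cell type and phase, with a bar at the median and a dashed line at the median of all 16011 genes (0.04 in neutrophils, 0.01 in keratinocytes, 0.03 in macrophages). Neutrophil medians are 0.46 for S phase and 0.71 for mitosis; the keratinocyte point at 6.29 is the rrm2 ID ENSDARG00000020711, which had 0 counts in all 3 control libraries, so that its fitted value depends on the prior count.

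In neutrophils, the contrast that chose the genes, the values were higher with HRasG12V for 55 of 60 IDs, with a median log2 fold change of 0.68. Over all genes 52.8% had a positive value and the median was 0.04. The median was 0.46 for S-phase IDs, 24 of 27 positive, and 0.71 for mitotic IDs, 28 of 29 positive. Among the 38 IDs with a mean of at least 20 counts, 35 were positive, with a median of 0.61. Fits that left out 1 library repeated the filter, which then kept 57 to 61 IDs of the set. Without neutrophil HRas control replicate 3 the median of the IDs kept was 0.55, with 50 positive, and those of S-phase and mitotic IDs were 0.51 and 0.56. The medians of the 2 phases thus lay closer together when that library was left out. 0 of 60 IDs had an adjusted p of at most 0.05, as had 0.15% of all genes in this contrast, and nothing is read from that count.

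All 3 HRasG12V neutrophil libraries lay above all 3 control libraries for 11 IDs, where 7.71% of all genes did. They were cdc6, cdt1, rpa1 and ccne2 of S phase, ccnb1, plk1, ttk, cdc20 and kif11 of mitosis, and ccnd1 and hmgb2a. No ID lay wholly below, where 5.1% of all genes did. Without control replicate 3, mcm7 and the rrm2 ID ENSDARG00000078069 joined them, 13 IDs where 11.7% of all genes lay above, and 0 IDs lay below, where 10.6% did. Since the choice of genes used this contrast, the shares are a description.

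Summed over all cell cycle IDs, neutrophil controls had 367, 554 and 343 CPM in replicates 1 to 3, and HRasG12V neutrophils 573, 690 and 503 CPM. The sum was higher with HRasG12V on each day, but control replicate 2 lay above HRasG12V replicate 3. Macrophage controls had 559 and 627 CPM and HRasG12V macrophages 625, 623 and 574 CPM. Keratinocyte controls had 392, 552 and 491 CPM and HRasG12V keratinocytes 457, 484 and 522 CPM. Neutrophil control replicates 1 and 3 were the lowest of the 17 libraries, and HRasG12V neutrophils spanned the macrophage range.

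Markers of other cells differed between the neutrophil groups too. Neutrophil markers, at 71.0, 63.1 and 31.9 CPM with HRasG12V, were above all 3 controls, as were pan-leukocyte markers (9 genes) at 44.4, 46.5 and 32.1 CPM against 11.1, 20.3 and 10.1 CPM. Erythroid markers (6 gene IDs) were at 28.1, 25.0 and 20.1 CPM against 9.29, 16.4 and 9.10 CPM. Photoreceptor markers (10 IDs) went the other way, with 16.3, 19.6 and 11.6 CPM against 164, 41.4 and 62.7 CPM. Markers of neural and retinal progenitors, cells that divide in the larva, were at 67.9, 71.0 and 70.3 CPM against 55.1, 79.3 and 57.2 CPM, which overlap. Blood progenitor markers (8 IDs) were at 12.1, 9.99 and 8.40 CPM against 9.80, 7.31 and 4.68 CPM, which overlap as well. The part of any of these cells in the cell cycle values was not tested.

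**Figure D3:**
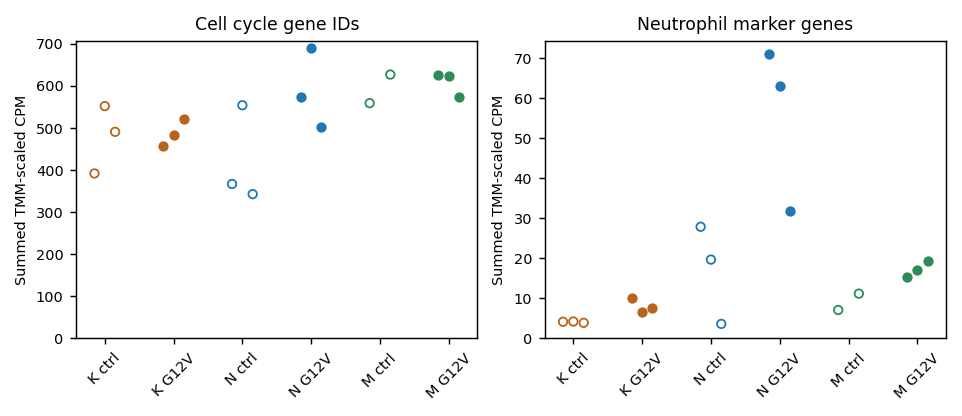
Summed TMM-scaled CPM of the cell cycle gene IDs (left) and of 6 neutrophil markers (right) in each library, with open circles for HRas control and filled circles for HRasG12V in keratinocytes (K), neutrophils (N) and macrophages (M). The neutrophil HRasG12V libraries have 503 to 690 CPM of cell cycle IDs and 31.9 to 71.0 CPM of neutrophil markers, and neutrophil control replicate 3 has the lowest values of both, 343 and 3.64 CPM.

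Of the licensing genes, the helicase subunits mcm7 and mcm2 had the highest levels. mcm7 had 14.8, 16.9 and 25.2 CPM in control and 20.8, 18 and 20.9 CPM in HRasG12V neutrophils, a log2 fold change of 0.08 (SE 0.27). The values of both groups overlapped. It was 0.31 without control replicate 3 and -0.12 without control replicate 1. mcm2 had 5.21, 11.6 and 3.38 CPM in control and 7.58, 9.54 and 6.05 CPM in HRasG12V, with 0.20 (SE 0.33) on the log2 scale. Its value was -0.05 without control replicate 3 and 0.80 without control replicate 2. The median over 9 licensing IDs, which also include mcm3, mcm4, mcm5, the mcm6 ID ENSDARG00000057683 and the helicase loaders, was 0.25.

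The helicase loaders had few counts. cdc6 had 0.408, 0.439 and 0 CPM in control and 0.947, 1.01 and 1.24 CPM in HRasG12V neutrophils, from 10 and 41 counts in all, a log2 fold change of 1.92 (SE 1.07). cdt1 had 1 count over the 3 control neutrophil libraries and 23 over the 3 with HRasG12V, at 1.21, 0.404 and 0.123 CPM, so that no fold is given. gmnn, the inhibitor of Cdt1, had the lowest neutrophil value, -1.28 (SE 0.74). It was set by control replicate 2, with 6.21 CPM against 0.613 and 1.04 CPM in the other controls and 0.775, 0.908 and 1.24 CPM in HRasG12V. Without that library it was 0.26.

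Genes of deoxynucleotide supply were higher in HRasG12V neutrophils by a median of 0.67 on the log2 scale over 4 IDs of rrm1, rrm2 and tyms. The rrm2 ID ENSDARG00000078069, small subunit of the reductase, had 4.39, 7.16 and 9.10 CPM in control and 8.35, 17.2 and 9.26 CPM in HRasG12V, a log2 fold change of 0.79 (SE 0.29). rrm1 had 3.78, 8.77 and 5.46 CPM in control and 9.73, 11.3 and 5.06 CPM in HRasG12V, with 0.56 (SE 0.34), and 0.30 without control replicate 1. The groups overlapped for both, since at least 1 HRasG12V library lay below the highest control.

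The other rrm2 ID, ENSDARG00000020711, was found almost only in neutrophil libraries. It had 1.12, 6.5 and 1.56 CPM in control and 4.82, 7.67 and 5.56 CPM in HRasG12V neutrophils, a log2 fold change of 1.19 (SE 0.75) that ranged from 0.59 to 2.17 when libraries were left out in turn. In keratinocytes it had 0 counts in all 3 controls and 2.68, 0 and 0.210 CPM with HRasG12V. In macrophages it had 0 and 0.666 CPM in control and 0.0921, 0 and 0 CPM with HRasG12V. Each neutrophil library except control replicates 1 and 3 lay above every library of the other cell types. Since both IDs carry the same symbol, reads could have been divided between them by RSEM, and their split is uncertain.

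At the replication fork, 7 of 7 IDs (pcna, pola1, pold1, rpa1, rpa2, rfc2 and rfc4) had positive neutrophil values, with a median of 0.60. pcna, the sliding clamp, had 6.94, 9.72 and 5.72 CPM in control and 11.3, 19.2 and 8.03 CPM in HRasG12V, 0.75 (SE 0.29) on the log2 scale. pola1, the catalytic subunit of the priming polymerase, had 4.29, 7.82 and 6.24 CPM in control and 7.06, 8.38 and 7.53 CPM in HRasG12V, with 0.33 (SE 0.33), 0.13 without control replicate 1 and 0.61 without control replicate 2. Both genes were higher on each of the 3 days, yet 1 or more HRasG12V libraries lay below the highest control.

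Chromatin genes of S phase differed least by their median, 0.16 over 4 IDs. chaf1a, a histone chaperone subunit, had 9.90, 21.3 and 18.5 CPM in control and 16.2, 19.4 and 14.4 CPM in HRasG12V, with 0.06 (SE 0.27), and -0.18 without control replicate 1. dnmt1, the maintenance DNA methyltransferase, had 10, 12.9 and 7.54 CPM in control and 12.1, 14.4 and 10 CPM in HRasG12V, with 0.25 (SE 0.27), and 0.08 without control replicate 3. uhrf1, its recruiting partner, had 0.08. chaf1b, the partner of chaf1a, had 0.204, 0.950 and 0 CPM in control and 0.861, 2.22 and 2.22 CPM in HRasG12V, with 1.92 (SE 0.82) from 15 and 72 counts. Its value was 1.47 without control replicate 3 and 3.49 without control replicate 2. The 4 highest values of the S-phase group, those of cdt1, cdc6, chaf1b and cdk2, were all of IDs with a mean under 20 counts.

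Regulators of the G1 to S step had 3 IDs. ccne2, a cyclin of Cdk2, had 1.43, 1.32 and 1.30 CPM in control and 1.90, 3.88 and 2.1 CPM in HRasG12V neutrophils, with 0.93 (SE 0.56), and the groups did not overlap. It was 0.46 without HRasG12V replicate 2. cdk2 itself had 0, 0.439 and 0 CPM in control and 0.689, 0.353 and 0.741 CPM in HRasG12V, with 1.86 (SE 1.23) from 6 and 21 counts. e2f1, a transcription factor of S-phase genes, had 0, 0.292 and 2.60 CPM in control and 0.431, 0.252 and 0.617 CPM in HRasG12V. Its log2 fold change of -0.56 (SE 1.31) rested on control replicate 3 and was 1.15 without it.

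Among mitotic genes, the kinase gene plk1 had 0.919, 2.41 and 0.520 CPM in control and 3.70, 5.75 and 3.46 CPM in HRasG12V neutrophils. The groups did not overlap, and the log2 fold change was 1.69 (SE 0.45). Keratinocyte controls had 3.33, 4.24 and 4.05 CPM and macrophage controls 5.60 and 5.58 CPM, so that every neutrophil control library was below every control library of the other cell types. aurkb, the kinase of the chromosomal passenger complex, had 0.306, 3.14 and 0 CPM in control and 1.55, 2.27 and 1.98 CPM in HRasG12V, with 0.66 (SE 0.77), where control replicate 2 exceeded every HRasG12V library. Its value was 0.09 without control replicate 3, 0.10 without control replicate 1 and 3.3 without control replicate 2. aurka and birc5a, the latter another member of that complex, had 0.29 (SE 0.79) and 1.02 (SE 0.98).

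The cyclin-dependent kinase gene cdk1 had 2.35, 2.05 and 0.260 CPM in control and 3.96, 3.88 and 1.11 CPM in HRasG12V neutrophils, with 0.88 (SE 0.56), and 0.52 without HRasG12V replicate 1. ccna2, cyclin A, had 0.102, 2.48 and 2.34 CPM in control and 2.93, 2.93 and 2.22 CPM in HRasG12V, with 0.79 (SE 0.65), 0.04 without control replicate 1 and 1.48 without control replicate 2. ccnb1, cyclin B, had 0.817, 1.1 and 0.260 CPM in control and 1.90, 2.37 and 1.24 CPM in HRasG12V, with 1.27 (SE 0.70). Only ccnb1 of these separated the groups. ccnb3 and foxm1 had 0.29 (SE 1.07) and 0.51 (SE 0.87), and foxm1 ranged from -0.09 to 0.94 when libraries were left out in turn.

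Genes of chromosome structure had higher values in 5 of 5 cases, with log2 fold changes from 0.51 (smc4) to 1.00 (smc2). mki67, whose protein coats mitotic chromosomes, had 28.4, 46.6 and 20.8 CPM in control and 45.9, 56.4 and 39.0 CPM in HRasG12V neutrophils, with 0.59 (SE 0.26), and 0.36 without control replicate 3. top2a, which untangles DNA, had 14.7, 24.7 and 17.2 CPM in control and 31.6, 33.7 and 19.4 CPM in HRasG12V, with 0.60 (SE 0.26). smc2, a condensin subunit, had 7.86, 15.3 and 3.64 CPM in control and 20.7, 21.2 and 11.8 CPM in HRasG12V, with 1.00 (SE 0.30). For each of these 3 genes control replicate 2 overlapped the HRasG12V range. ncapg, a further condensin subunit, had 0.79 (SE 0.44).

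Checkpoint, kinetochore and anaphase genes had positive values for 8 of 8 IDs, with a median of 0.86. cenpe had 60.4, 70.1 and 60.9 CPM in control and 86.3, 102 and 68.0 CPM in HRasG12V neutrophils, with 0.43 (SE 0.25). cenpf, a kinetochore protein gene, had 27.5, 28.8 and 19.8 CPM in control and 27.9, 37.4 and 30.4 CPM in HRasG12V, with 0.30 (SE 0.23), and 0.12 without control replicate 3. The values of both genes overlapped between groups, and their fold changes were the smallest of this role. ttk, the Mps1 checkpoint kinase, had the highest, 1.83 (SE 0.83), with 0.510, 0.731 and 0 CPM in control and 1.98, 2.12 and 1.11 CPM in HRasG12V. Its value was 1.43 without control replicate 3 and 2.37 without control replicate 2. cdc20, bub1bb, mad2l1, bub3 and bub1 had fitted values of 1.59, 1.17, 1.00, 0.73 and 0.63.

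Spindle genes were positive for 6 of 7 IDs. kif11, the bipolar spindle kinesin, had 5.92, 13.0 and 10.4 CPM in control and 15.8, 16.9 and 16.7 CPM in HRasG12V neutrophils, with 0.78 (SE 0.29), and the groups did not overlap. tpx2, a spindle assembly factor, had 4.49, 7.09 and 4.42 CPM in control and 9.65, 10.7 and 4.45 CPM in HRasG12V, with 0.63 (SE 0.40), and 0.38 without HRasG12V replicate 1. kif23, the midzone kinesin, had 3.06, 7.02 and 5.46 CPM in control and 4.31, 4.04 and 6.05 CPM in HRasG12V, with -0.13 (SE 0.38), the exception of this role, and 0.27 without control replicate 2. nusap1, kif20a and the prc1a IDs ENSDARG00000005993 and ENSDARG00000100918 had 0.71, 0.70, 1.43 and 0.26.

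The 3 other genes were among the more abundant. hmgb2a had 28.3, 36.6 and 12.7 CPM in control and 52.9, 65.1 and 41.2 CPM in HRasG12V neutrophils, with 1.07 (SE 0.28), and 0.80 without control replicate 3. ccnd1, the growth-factor responsive D cyclin, had 8.07, 12.1 and 6.24 CPM in control and 12.8, 23.4 and 18.9 CPM in HRasG12V, with 1.01 (SE 0.28). Every HRasG12V library lay above every control library for both. The stmn1a IDs differed from each other, at 1.08 (SE 0.51) for ENSDARG00000004169 and -0.06 (SE 0.28) for ENSDARG00000033655, though the split of reads between them is uncertain.

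**Figure D4:**
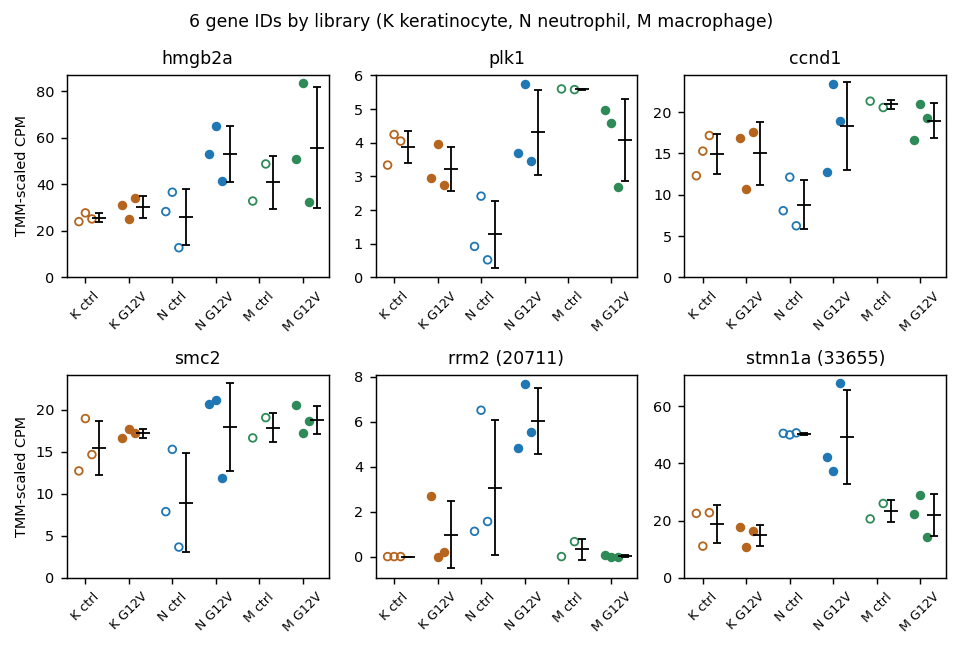
TMM-scaled CPM of 6 gene IDs in each library, with open circles for HRas control, filled circles for HRasG12V and a bar for the group mean with its SD (n = 3 libraries, 2 for macrophage control). hmgb2a, plk1 and ccnd1 separate the neutrophil groups, smc2 does not, and the stmn1a ID is near 50 CPM in all 3 neutrophil controls. Outside neutrophils the rrm2 ID has 2.68 CPM in keratinocyte HRasG12V replicate 1 and at most 0.666 CPM in the other libraries.

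Differences within each collection day were taken as log2 CPM of the HRasG12V library minus that of the control library of that day. In neutrophils the median over 60 IDs was 0.84 on day 1 (56 IDs higher), 0.36 on day 2 (43 higher) and 0.87 on day 3 (48 higher), where all genes had medians of 0.01, 0.01 and 0.20. S-phase IDs had 0.70, 0.15 and 0.55, and mitotic IDs 0.91, 0.47 and 1.31. Day 3 used the control library that stood apart. The mitotic median exceeded the S-phase median on each day. All 3 days were positive for 34 of 60 IDs, 12 of S phase and 19 of mitosis, where 17% of all genes were, and for no ID were all 3 negative, where 12.7% of all genes were.

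In keratinocytes, also used in the choice, the daily medians were 0.30, 0.00 and 0.14 on days 1, 2 and 3, where all genes had 0.01, 0.00 and 0.01. Of 60 IDs, 12 were higher on every day, where 15% of all genes were, and 5 were lower on every day, where 12.4% were. The fitted median was 0.18, with 42 of 60 IDs positive, 0.12 for S-phase and 0.20 for mitotic IDs. It was also 0.18 with the rrm2 ID that had 0 counts in control set at a bound of 3 counts over the group. That ID lay above the median either way, so the median could not move and nothing is read from this. Among the 38 IDs with a mean of at least 20 counts the median was 0.08, with 24 positive. The median of the set's IDs kept by the filter was -0.06 without HRasG12V replicate 3, so that its direction rested on that library.

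0 of 60 IDs passed an adjusted p of 0.05 in keratinocytes, where 0.262% of all genes did, and nothing is read from that. HRasG12V libraries lay wholly above controls for rfc4, cdk2, birc5a and the prc1a ID ENSDARG00000005993, where 6.75% of all genes did. They lay wholly below for kif20a, where 5.02% did. kif20a differed by little, with 4.79, 4.81 and 5.03 CPM in control and 4.65, 3.65 and 4.70 CPM in HRasG12V. mki67 had 27.9, 83.2 and 54.9 CPM in control and 48.2, 70.3 and 59.8 CPM in HRasG12V keratinocytes, 0.16 (SE 0.26) on the log2 scale. pcna had 6.25, 10.5 and 7.96 CPM in control and 9.02, 8.22 and 7.16 CPM in HRasG12V, with 0.01 (SE 0.30). Skeletal muscle markers, which do not belong to this cell type, were at 701, 765 and 635 CPM in HRasG12V keratinocyte libraries and 294, 251 and 195 CPM in controls. Neural and retinal progenitor markers were at 38.0, 37.7 and 39.2 CPM against 52.9, 53.5 and 58.4 CPM. The part of either in these values was not tested.

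**Figure D5:**
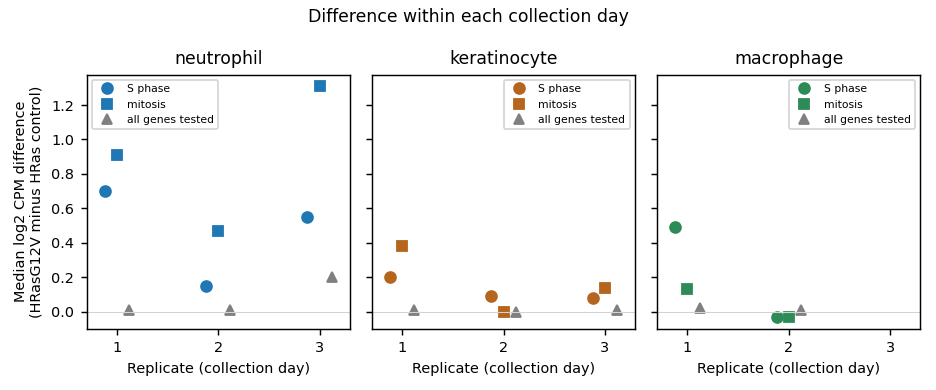
Median log2 CPM difference, HRasG12V minus HRas control within each collection day, over S-phase IDs (circles), mitotic IDs (squares) and all genes tested (triangles) by cell type. In neutrophils the S-phase medians are 0.70, 0.15 and 0.55 and the mitotic medians 0.91, 0.47 and 1.31, while keratinocyte values lie between 0.00 and 0.38 and macrophages have 2 days.

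Macrophages from the same kind of larvae offered a test that the choice of genes did not use. 0 of 60 IDs had an adjusted p of at most 0.05, and 0 of all genes did (0.0%). DESeq2 also called 0 of the IDs. At an unadjusted p under 0.05 there were 2 of 60 IDs, against 484 of 16011 genes (3.02%). The fitted median was 0.10, with 37 of 60 IDs positive, where all genes had 0.03 and 52.4% positive. It was 0.18 for S-phase and 0.08 for mitotic IDs. When libraries were left out in turn, the filter kept 57 to 61 IDs of the set, and their median ranged from 0.01 to 0.25. That of S-phase IDs was -0.02 without HRasG12V replicate 1, and that of mitotic IDs -0.09 without HRas control replicate 2. Within days the medians were 0.27 on day 1 and -0.02 on day 2, and 22 IDs were higher on both, where 29.3% of all genes were, and 13 lower, where 27.6% were. Keratinocyte markers were at 2450, 2510 and 1860 CPM in HRasG12V macrophages and 1130 and 1230 CPM in controls. Neutrophil markers were at 15.3, 17.2 and 19.3 CPM against 7.11 and 11.2 CPM, and skeletal muscle markers at 458, 399 and 325 CPM against 298 and 260 CPM. All 3 lists were higher in every HRasG12V macrophage library, and their part in the cell cycle values was not tested. Since 0 of all genes passed the threshold in this fit, nothing is read from the 0 cell cycle IDs called.

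The 3 IDs with the smallest p-values in macrophages were foxm1, rrm2 (ENSDARG00000020711) and hmgb2a. foxm1 had 2.87 and 2.16 CPM in control and 0.460, 0.993 and 0.755 CPM in HRasG12V macrophages, which do not overlap, and its log2 fold change was -2.25 (SE 0.96, adjusted p = 1 in edgeR). It was -0.81 without control replicate 1 and -3.29 without control replicate 2. The rrm2 ID had 8 counts in the control libraries, all in replicate 2, and 1 count in the HRasG12V libraries, and its fitted value of -3.24 turned to 1.64 without that control library. hmgb2a had 32.8 and 48.8 CPM in control and 51.0, 83.7 and 32.3 CPM in HRasG12V, with 0.56 (SE 0.31, adjusted p = 1 in edgeR), and the groups overlapped. It was 0.29 without HRasG12V replicate 2. With only the 5 macrophage libraries in the fit, where 249 of all genes were called, hmgb2a had an adjusted p of 0.0192 in edgeR. That fit kept the day block, and HRasG12V replicate 3 was the only library of its day. The comparison thus rested on days 1 and 2, with few libraries left to estimate the spread, and nothing is read from this call.

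All 3 HRasG12V macrophage libraries lay above both controls for rfc2, chaf1b and kif11, where 9.58% of all genes did. They lay below both for mcm2, mcm3, foxm1, plk1 and the prc1a ID ENSDARG00000005993, where 8.98% did. Both counts are near or below the shares of all genes, and nothing is read from them. For mcm2 the separation was small, 11.5 and 11.6 CPM against 11.4, 11.4 and 8.39 CPM.

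Other cell cycle genes, from lists written with general knowledge of the pathway, were read beside the set. Earlier results of these data were known when the lists were written, so they are no independent check. Of 92 further names of S phase and mitosis, 78 gene IDs were tested and 0 were called in any cell type. Of all genes, 0.15% were called in neutrophils, 0.262% in keratinocytes and 0.0% in macrophages, and nothing is read from that count. In neutrophils 66 of 78 were positive with a median log2 fold change of 0.60, in keratinocytes 35 with -0.10, and in macrophages 43 with 0.12. Over all genes 52.8%, 50.5% and 52.4% were positive in that order, with medians of 0.04, 0.01 and 0.03. The 32 S-phase IDs had neutrophil and keratinocyte medians of 0.66 and -0.21, and the 46 mitotic IDs 0.58 and 0.04. In these same neutrophil libraries the genes outside the set had medians near those of the set, with no larger value for mitosis. Of the 32 S-phase IDs only 9 had a mean of at least 20 counts, with a neutrophil median of 0.57. Of the 46 mitotic IDs 26 did, with 0.50. The neutrophil values of these lists include control replicate 3 and were not repeated without it.

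The most abundant genes of each list are given here. lig1, the ligase that joins Okazaki fragments, had 9.34 ± 4.46 CPM in control and 13.8 ± 2.63 CPM in HRasG12V neutrophils (SD, n = 3). timeless, a fork protection gene, had 8.96 ± 5.82 and 11.7 ± 1.23 CPM. Of the mitotic list, the cohesin gene smc1al had 60.8 ± 21.8 and 77 ± 9.43 CPM, and ckap5, a microtubule polymerase gene, had 50.0 ± 4.22 and 52.1 ± 5.54 CPM. For each of these 4 genes the ranges of mean ± SD overlapped between the constructs.

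Genes that restrain the cycle were read in the same way. Of 14 tested IDs of a list of cell cycle inhibitors and arrest genes, 9 had positive neutrophil values, with a median of 0.33. btg1, an antiproliferative gene, had 26.3 ± 4.42 CPM in control and 39.6 ± 4.12 CPM in HRasG12V neutrophils (SD, n = 3). Of 14 IDs of G1 cyclins, their kinases and Myc genes, 11 were positive, with a median of 0.51. Of these, cdk6 had 8.55 ± 1.79 and 11.6 ± 1.75 CPM, and mycn 10.8 ± 2.13 and 10.5 ± 3.15 CPM.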

How the data were processed

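Single-end reads were mapped by the authors (Bowtie 1.1.1, GRCz10), and the deposited values used here are gene-level expected counts from RSEM 1.2.20, not normalized. The annotation release and strand setting are not given in the sources used here, and amplified libraries carried no molecular identifiers. Effective lengths are as deposited. Expected counts were rounded. In edgeR 4.0.16 (R 4.3.3), filterByExpr over 6 groups, TMM factors and 1 quasi-likelihood model with collection day as a block, as in the study, were used on 17 libraries. Log2 CPM used a prior count of 2, and fitted fold changes 0.125. The SE of a fitted log2 fold change is its absolute value divided by the square root of the quasi-likelihood F. In neutrophils and keratinocytes the SE is given as a description, and no test is read from it. Calls had a Benjamini-Hochberg adjusted p of at most 0.05. The batch label is the replicate number, so numbers pair libraries by day. Correlations of deviations between the constructs of a day ranged from -0.0661 to 0.327 over 4543 genes. DESeq2 1.42.0 was an alternative. Nothing states that a library's larvae came from separate parents, so p-values measure spread between pools. The members and lists were chosen with earlier results of these data known. Values in every library are given for the members with the 2 highest mean levels in each role, the 5 highest and 3 lowest neutrophil fold changes and the 3 smallest macrophage p-values, and for others chosen after their values were seen (smc2, ccnd1, ccnb1 and kif20a). The fit was tested on simulated data.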

Additional observations from a re-analysis of the deposited data

Results flagged for a closer look

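For cdt1 and plk1 every collection day went up in neutrophils and down in keratinocytes. The median log2 difference over days in neutrophils minus that in keratinocytes was 2.43 for cdt1 and 1.96 for plk1. The difference was not tested, since both contrasts entered the choice of genes. In cdt1 the neutrophil days were 2.82, 1.15 and 0.70 and the keratinocyte days -1.63, -1.28 and -0.92, from 1 count in control and 23 in HRasG12V neutrophils and 9 and 5 counts in keratinocytes. By day these were 0, 1 and 0 against 14, 8 and 1 counts in neutrophils, and 2, 1 and 6 against 0, 0 and 5 in keratinocytes. The cdt1 signs of single days thus rest on very few counts, and the sizes depend on the prior count. In plk1 the neutrophil days were 1.80, 1.19 and 2.35 and the keratinocyte days -0.16, -0.10 and -0.53. The same signs were found for kif20a, so that 3 of 60 IDs had them, against 273 of 16011 genes tested (1.71%), and nothing is read from that count.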

How the results depend on the processing

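With library size alone in place of TMM factors, the median log2 fold change of the tested members was 1.19 in neutrophils, 0.60 in keratinocytes, 0.80 in macrophages and 1.12 for macrophage against keratinocyte controls, but the medians of all genes moved to 0.49, 0.39, 0.76 and 0.74. With all genes of at least 1 count, 1 member was called in neutrophils (hmgb2a), where 112 genes were called in all. In keratinocytes 1 was called (the rrm2 ID ENSDARG00000020711), where 94 genes were. DESeq2 called 2 in neutrophils, hmgb2a and plk1. Both contrasts entered the choice of genes, so nothing is read from members called in neutrophils or keratinocytes. With only macrophage libraries in the fit, 1 member, hmgb2a, was called in macrophages, where 249 genes were called in all. HRasG12V replicate 3 was alone on its day there, so that fit compared the constructs on days 1 and 2 only. Leaving out libraries in turn gave 0 to 1 members called in neutrophils (smc2, without HRas control replicate 2), with 2 to 35 genes called in all. The neutrophil median then ranged from 0.52 to 0.91, and the keratinocyte median from -0.06 to 0.35. With genes of a mean of at least 50 counts the keratinocyte median was 0.03. The S-phase minus mitotic balance of HRasG12V keratinocytes was -0.61 over members with a mean of at least 20 counts. As alternatives chosen after seeing the data, leaving out neutrophil HRas control replicate 3 turned the baseline median of neutrophils minus keratinocytes from -0.24 to 0.04, that of S-phase members from -0.13 to 0.16 and that of members with a mean of at least 20 counts from -0.21 to 0.04. The rrm2 ID ENSDARG00000020711 in macrophages ranged from -4.83 to 1.64 when libraries were left out, the latter without HRas control replicate 2. Without the replicate block the medians were 0.61, 0.18, 0.07 and 0.50 in the order above, and 0 members were called in each comparison. Genes called in all ranged over the alternatives from 1 to 112 in neutrophils, 20 to 94 in keratinocytes, 0 to 249 in macrophages and 75 to 370 for macrophage against keratinocyte controls. In neutrophils the members' median was positive in each of the 27 alternatives. All of these used the contrast on which the genes were chosen, so nothing is read from that. With library size alone e2f1, kif23 and the stmn1a ID ENSDARG00000033655 had positive neutrophil values, 0.28, 0.36 and 0.35. The depth left 22 of 60 tested IDs with a mean under 20 counts, so their fold changes are the least certain. The causes of these shifts were not tested.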
